A study of Mus musculus with 5 samples.

Results

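General capillary (gCap) endothelial cells were picked out of 4 single-cell libraries of unsorted C57BL/6J mouse lung by the genes detected in each cell. A cell was kept when it had more than 700 and fewer than 8000 detected genes and less than 5% of its counts from mitochondrial features. It was taken as a gCap cell when 2 or more of 6 endothelial genes (Cdh5, Pecam1, Cldn5, Ptprb, Clec14a and Egfl7) were detected, when it had no count of Vwf, fewer than 2 counts of the aerocyte genes Car4 and Ednrb together, and 1 or more counts of Gpihbp1, Kit and Aplnr together. These criteria gave 1259 of the 12707 kept cells. The cells were thus chosen by the measured levels of these 12 genes, which are given below only as a description.

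Treatment lasted 3 days and began before pups were 12 h old. Litters breathed either room air or oxygen above 95% (hyperoxia), and the nursing dams traded places every 24 h. All mice were in room air afterwards. Lungs were taken at postnatal day (pnd) 7 or pnd60, which gave the groups air pnd7, hyperoxia pnd7, air pnd60 and hyperoxia pnd60, with 1 library each. How many mice stand behind each of these libraries was not given in the sources used here. Another library held hyperoxia pnd7 cells sorted for senescence-associated β-galactosidase activity with the substrate C12FDG, pooled from the lungs of 3 mice, and only 1 of its 493 kept cells met the gCap criteria, so it was not used. With 1 library per group there was no replicate spread and no test, and every interval below is a 95% interval that covers counting error only.

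Capillaries of the lung alveolus are lined by 2 endothelial cell types. gCap cells carry Gpihbp1, which anchors lipoprotein lipase at the capillary wall, the stem cell factor receptor Kit and the apelin receptor Aplnr, and they are known as the cells that divide to maintain and repair the capillary bed. Aerocytes, which carry Car4 and the endothelin receptor Ednrb, do not act as progenitors and lie where the capillary meets the gas-exchange surface. Apelin and Kit ligand, made by aerocytes, are the ligands of the receptors found on gCap cells.

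The libraries held 29873688, 26295355, 15906723 and 18320487 counts over 4243, 2664, 5128 and 5632 barcodes, in the order air pnd7, hyperoxia pnd7, air pnd60 and hyperoxia pnd60, which is the order of all values in lists of 4 below. The gCap cells numbered 181, 139, 456 and 483 and carried 918480, 1028083, 1081205 and 1204177 counts. A gCap cell at pnd7 was deeper than one at pnd60, with median counts per cell of 3198, 4226, 1654.5 and 1802. Levels are counts per 1e+06 (CPM) of the summed counts of the gCap cells of a library. The reads come from the 3′ ends of transcripts. Because each group is 1 library, a difference in age or in oxygen cannot be told apart from a difference between libraries. Any 2 of the unsorted libraries shared 5 to 7 barcodes.

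Before levels were compared, the label was checked against Cd93, a gCap marker that the criteria did not use. Cd93 was detected in 63.0, 87.8, 92.5 and 91.5% of gCap cells, against 9.36, 5.44, 8.44 and 8.55% of the cells that were not endothelial, whose median counts were 4482, 8762, 2275.5 and 2408. Among other vessels Cd93 was detected in 78.7, 78.4, 91.3 and 90.5% of endothelial cells with Vwf and in 55.2, 62.3, 39.1 and 26.0% of aerocytes, so it did not set gCap cells apart from Vwf-positive cells and, in air at pnd7, little from aerocytes. After each cell was thinned to 1000 counts, the shares were 44.2, 54.7, 84.7 and 82.5% in gCap cells and 3.22, 1.11, 4.08 and 3.81% in non-endothelial cells. Cd93 was thus found in most gCap cells at pnd60 and less often at pnd7, with the lowest share in air at pnd7. The gCap markers Plvap and Tek, also unused, were detected in more gCap cells than aerocytes in every library. Sema3c at pnd7 was in fewer gCap cells (49.2 and 49.6%) than aerocytes (55.2 and 66.7%), and at pnd60 in more. Lpl in air at pnd7 was in 35.9% of gCap cells, 36.2% of aerocytes and 30.6% of non-endothelial cells. Elsewhere Lpl was in more gCap cells than aerocytes. These shares were not thinned, and aerocytes at pnd7 had median counts of 6000.5 and 4928. Cells with a single count of the 3 gCap genes had Cd93 at 152, 310, 984 and 756 CPM, and endothelial cells just outside, with no such count, at 81.9, 49.3, 200.2 and 122 CPM. Cldn5, 1 of the 6 endothelial genes, was nearly absent from these tables, with 1, 0, 0 and 2 counts over all kept cells.

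The low share at pnd7 went with RNA of other cells, whose part in the levels below was not tested beyond the restricted cells described next. In air at pnd7, 90 of the 181 gCap cells had only 2 or 3 of the endothelial genes, and the median share of their counts from hemoglobin genes was 15.9% in cells with 2 and 17.3% in cells with 3. Over 2% of counts came from hemoglobin in 98, 14, 2 and 2 cells, and 2% or more came from a panel of 64 markers of other lung cells in 96, 41, 17 and 22 cells. The summed level of 9 alveolar type II cell markers in gCap cells was 23651, 33079, 14941 and 10237 CPM, led by Sftpc, and that of 6 erythroid genes was 47708, 21395, 3394 and 3008 CPM, led by Hbb-bs. Non-endothelial cells had 57635, 70907, 42959.6 and 41869 CPM for the same type II markers.

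A stricter set, called restricted cells here and chosen after the data had been seen, kept gCap cells with 4 or more of the endothelial genes, less than 2% of counts from the other-cell markers, less than 2% from hemoglobin and fewer than 2 of 4 lymphatic genes (Prox1, Mmrn1, Reln and Ccl21a). It held 75, 73, 392 and 412 cells, which is 41.4, 52.5, 86.0 and 85.3% of the gCap cells. Cd93 was detected in 98.7, 100, 96.4 and 96.6% of them. By their selection these cells are low in markers of other cells and high in endothelial genes. Type II markers summed to 230.2, 235, 352 and 352 CPM and erythroid genes to 1763, 1624, 164 and 31.8 CPM in restricted cells. Fibroblast markers, 8 genes led by Mfap4 or Inmt in all gCap cells, summed to 2004, 2765, 1016 and 682 CPM, and in restricted cells they were at 158, 2116, 601 and 439 CPM, with the high value in hyperoxia at pnd7. Values in restricted cells are given beside many of the results below, but not all.

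Other cell types were traced in the same way. Airway cell markers summed to 2021, 74.9, 10921 and 17691 CPM, led by Scgb1a1 in every library but hyperoxia pnd7, and to 50.4, 54.1, 937 and 933 CPM in restricted cells. Mural cell markers were at 1246, 1516, 146 and 110.4 CPM, led at pnd7 by Acta2, and macrophage and monocyte markers at 468, 437, 751 and 850.4 CPM, led by Lyz2. Lymphocyte markers summed to 155, 60.3, 400.5 and 462 CPM, alveolar type I markers, led by Clic5, to 516, 558, 801 and 1317 CPM and neutrophil markers to 41.4, 2.92, 14.8 and 747 CPM. Clic5 was at 261, 194, 540 and 728 CPM in gCap cells but 85.0, 120, 119 and 111 CPM in non-endothelial cells. The type I sum, at 478, 328, 944 and 1060 CPM in restricted cells, is thus no measure of type I cell RNA. Platelet markers summed to 5.44, 10.7, 3.7 and 0.83 CPM, nearly all from Itga2b, and Ppbp and Pf4 were at 0 in every class of kept cells, endothelial or not. Arterial markers were at 1264, 1085, 1860 and 2123 CPM, led by Sox17 and Efnb2. Lymphatic markers were at 969, 855, 767 and 1065 CPM with Lyve1 the most abundant and with Ccl21a and Pdpn at 0, and venous markers were at 252, 318, 175 and 284 CPM with Vwf at 0 by the criteria. Both Xist, at 948, 804, 743 and 914 CPM, and the Y-linked gene Ddx3y, at 33.8, 30.2, 111 and 91.3 CPM, were found in every library.

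gCap cells were 7.84% of kept cells in air at pnd7 (interval 6.78 to 9.02), 11.2% in hyperoxia at pnd7 (9.46 to 13), 10.4% in air at pnd60 (9.48 to 11.3) and 10.2% in hyperoxia at pnd60 (9.31 to 11). Air at pnd7 was the low value, and the intervals of the other 3 libraries overlap. Of the endothelial cells, gCap cells were 36.0% (31.8 to 40.4), 40.3% (35.1 to 45.7), 39.7% (36.8 to 42.6) and 40.3% (37.5 to 43.1), with all 4 intervals overlapping. For restricted cells the other gCap cells were left out of the endothelial total, which left 397, 279, 1085 and 1129 endothelial cells. Of these, restricted cells were 18.9% (15.2 to 23.1), 26.2% (21.1 to 31.7), 36.1% (33.3 to 39.1) and 36.5% (33.7 to 39.4). Both pnd7 libraries were below both pnd60 libraries, with no overlap between the ages, but the restriction was put on gCap cells alone. It kept 41.4, 52.5, 86.0 and 85.3% of them. Under the same limits the aerocytes would number 29 of 58, 36 of 69, 143 of 184 and 139 of 192. At an equal depth of 1000 counts per cell the shares of kept cells were 4.73% (3.9 to 5.68), 8.35% (6.88 to 10), 9.72% (8.86 to 10.6) and 9.62% (8.79 to 10.5), with air at pnd7 lowest and the other 3 intervals overlapping. Of endothelial cells at this depth, gCap cells at pnd7 were 37.8% (32.2 to 43.7) and 42.8% (36.5 to 49.3). At pnd60 they were 45.9% (42.6 to 49.2) and 49.3% (46.0 to 52.6), and air pnd7 did not overlap hyperoxia pnd60. Restricted cells made up 3.25% (2.56 to 4.06), 5.86% (4.62 to 7.31), 8.92% (8.09 to 9.8) and 8.66% (7.88 to 9.5) of kept cells, with no overlap between the ages. The share therefore depended on the depth of the cells and on how strictly a gCap cell was defined. The gap between the ages in restricted cells cannot be told apart from the uneven loss of gCap cells to the restriction.

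**Figure D1:**
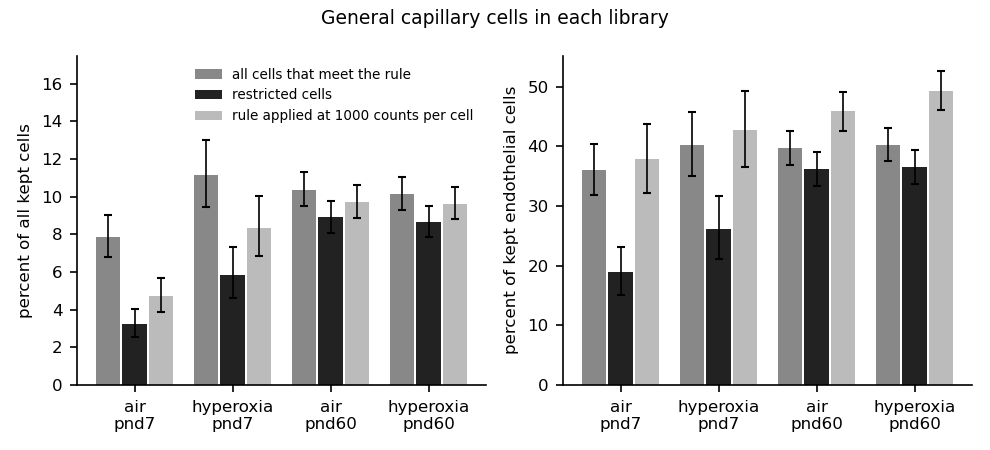
Share of gCap cells per library, as percent of kept cells and as percent of kept endothelial cells, for all gCap cells, for restricted cells and for the criteria applied at 1000 counts per cell. For restricted cells the endothelial total leaves out the other gCap cells. Bars show the share and lines its 95% binomial interval. All gCap cells range from 7.84 to 11.2% of kept cells and restricted cells from 3.25 to 8.92%.

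Of the 5 gCap markers that the criteria did not use, 3 (Cd93, Tek and Sema3c) were more than 2-fold higher at pnd60 than at pnd7 in both pairs, against 12.4% of all 4121 genes measured in both. Cd93, a transmembrane lectin of endothelium, was at 832, 687, 2242 and 2041 CPM. Tek, the angiopoietin receptor Tie2, was at 248, 249, 613 and 710 CPM. Sema3c, a secreted guidance protein, was at 291, 186, 1208 and 1340.3 CPM. The log2 ratios of pnd60 to pnd7 in air and in hyperoxia were 1.43 and 1.57 for Cd93, 1.3 and 1.51 for Tek and 2.05 and 2.85 for Sema3c, and of 1.1 and 1.3, 1.02 and 1.3 and 1.94 and 2.65 in restricted cells. The plasmalemma vesicle protein Plvap, which forms the diaphragms of endothelial fenestrae and caveolae, was at 531, 635, 924 and 979 CPM, and lipoprotein lipase (Lpl) at 133, 153, 194 and 179 CPM, both below 2-fold in both pairs. The 3 genes of the criteria, whose levels are a description of the choice of cells, were at 569, 543, 757 and 727 CPM for Gpihbp1, 413, 295, 637 and 704 CPM for Kit and 271, 271, 406 and 441 CPM for Aplnr. Of 10 pan-endothelial genes 6 belong to the criteria, and the other 4 differed by less than 2-fold, with log2 ratios of 0.3 and 0.7 for the receptor gene Tie1, 0.37 and 0.44 for the adhesion gene Esam, 0.09 and 0.24 for Ramp2, a partner of the adrenomedullin receptor, and -0.23 and -0.29 for the sialomucin endomucin (Emcn).

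gCap cells were next set beside the aerocytes of the same libraries, kept endothelial cells without Vwf and with 2 or more counts of Car4 and Ednrb, of which there were 58, 69, 184 and 192. Of 2644 genes with at least 100 counts over both classes in every library, 25 were more than 2-fold lower in gCap cells in all 4 libraries, among them Car4 and Ednrb, by which the classes were split, and the only 2 that were more than 2-fold higher in all 4, Kit and Ptprb, belong to the criteria. Apelin (Apln), the ligand of the gCap receptor Aplnr, was at 18.5, 26.3, 7.4 and 11.6 CPM in gCap cells and 149, 213, 432 and 367 CPM in aerocytes. Its log2 ratios of gCap cells to aerocytes were -3.01, -3.02, -5.87 and -4.98. They were -2.61, -2.79, -5.48 and -5.17 in restricted cells, for which the aerocytes were restricted as well, to 29, 36, 143 and 139 cells. Fibin, a secreted protein, was at 27.2, 35, 2.77 and 2.49 CPM in gCap cells and 150.4, 179.8, 519.8 and 517 CPM in aerocytes. Kit ligand (Kitl), which binds Kit, was at 261, 259, 249.7 and 278 CPM in gCap cells and 808, 1143, 1614 and 1401 CPM in aerocytes. Both ligands of gCap receptors were thus lower in gCap cells in every library, and for Apln and Fibin the gap was wider at pnd60. The T-box factor Tbx2, with log2 ratios of -2.58, -2.19, -3.69 and -3.66, and the membrane protein gene Emp2, with -2.53, -2.66, -3.87 and -3.11, were lower in gCap cells in every library as well. In restricted cells, set against the restricted aerocytes, the ratios of Emp2 were -4.11, -4.03, -4.2 and -3.77, and its gap was no wider at pnd60 in hyperoxia. Pmp22, Enho and Gnao1 were the other genes with the lowest ratios.

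Outside the criteria, then, no gene was more than 2-fold higher in gCap cells in all 4 libraries, and those that ranked highest had smaller ratios. Edn1, the vasoconstrictor peptide endothelin 1 that signals through Ednrb, was at 198, 279, 356 and 461 CPM in gCap cells and 70.3, 157, 104 and 116 CPM in aerocytes, with log2 ratios of 1.5, 0.83, 1.78 and 2.0. Plvap was at 306, 297, 306 and 308 CPM in aerocytes, with log2 ratios of 0.79, 1.1, 1.6 and 1.67. Cemip2, a hyaluronidase, had log2 ratios of 0.82, 0.95, 1.49 and 1.61, and Mmrn2, a matrix protein that binds Cd93, of 0.79, 0.81, 1.55 and 1.31. Ugcg, the enzyme of glucosylceramide synthesis, had ratios of 1.34, 1.45, 0.79 and 1.08, and Cd93 of 0.46, 0.58, 1.11 and 1.67. Mmrn1, a lymphatic gene carried by few cells, also ranked among the highest. These genes also marked other vessels, since endothelial cells with Vwf had Edn1 at 265, 286, 481 and 472 CPM, Plvap at 760.3, 975, 1037 and 1024 CPM and Cd93 at 876, 823, 2093 and 1897 CPM.

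**Figure D2:**
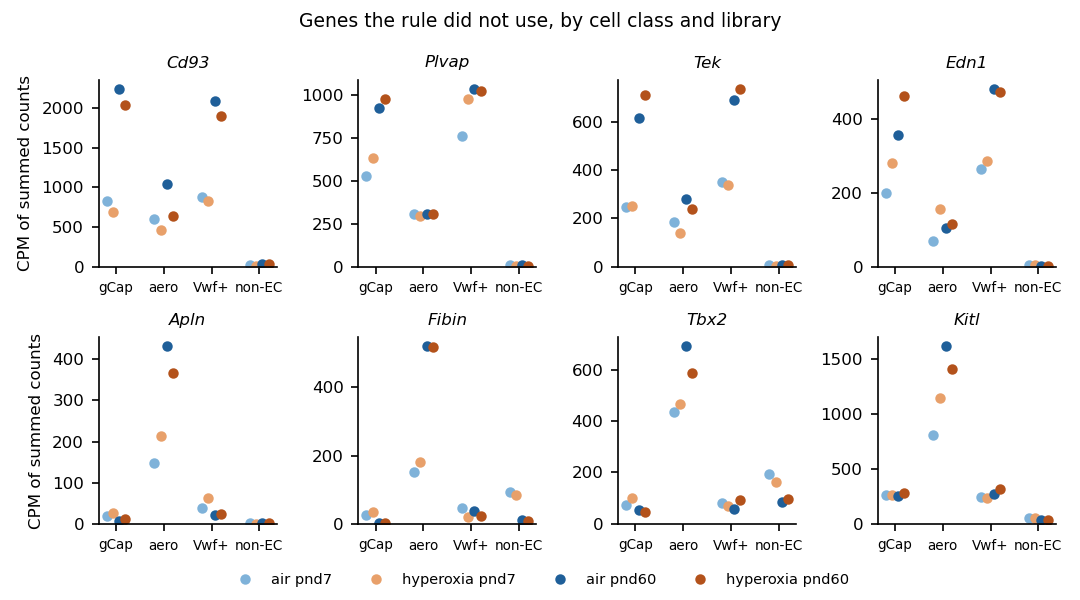
CPM of 8 genes in gCap cells, aerocytes, Vwf-positive endothelial cells and non-endothelial cells of each library. Apln, Fibin, Tbx2 and Kitl are higher in aerocytes than in gCap cells in all 4 libraries, whereas Cd93, Plvap, Tek and Edn1 are higher in gCap cells and in Vwf-positive cells than in aerocytes.

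The comparison of pnd60 with pnd7 was made once in air and once in hyperoxia, and the 2 pairs share no library. A gene was called when its ratio was past 2-fold, among genes with at least 100 counts over the pair. In air, 664 of 4232 genes (15.7%) were called higher and 458 (10.8%) lower at pnd60. In hyperoxia 857 of 4670 (18.4%) were higher and 619 (13.3%) lower. Among 4121 genes measured in both pairs, 509 (12.4%) were higher in both and 378 (9.17%) lower in both. These are the shares against which each list below should be read for age. In restricted cells 342 of 2609 genes (13.1%) were higher in both pairs and 321 (12.3%) lower. The median log2 ratio of all genes was 0.19 in air and 0.22 in hyperoxia, and 0.12 and 0.19 in restricted cells. Scaling by trimmed mean of M values (TMM) brought these medians to 0.04 and -0.02 and turned the split of calls to 517 higher and 588 lower in air and to 563 higher and 874 lower in hyperoxia.

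**Figure D3:**
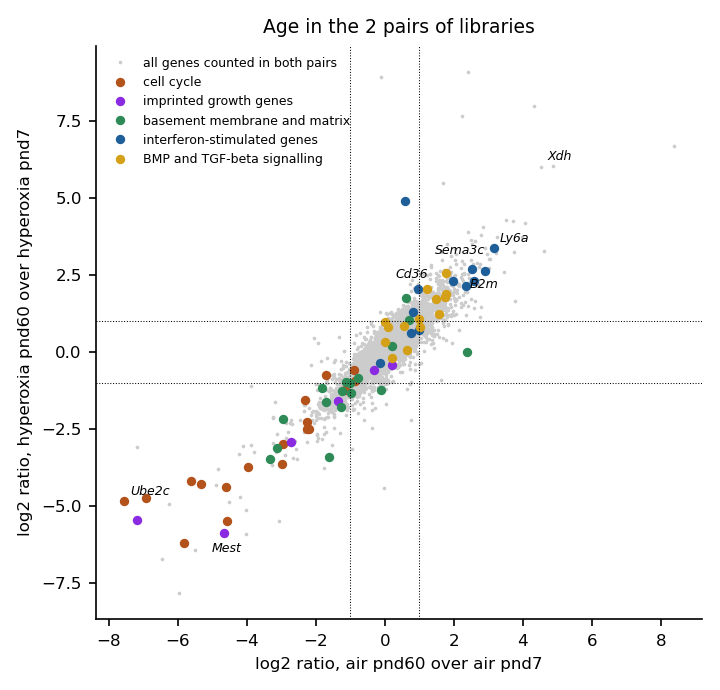
Log2 ratio of pnd60 to pnd7 for 4121 genes, with the air pair on the horizontal axis and the hyperoxia pair on the vertical axis. Genes of 5 lists are coloured and dotted lines mark 2-fold. Genes at 0 at pnd60 are drawn at the ratio that 3 counts would give. Cell cycle genes lie low in both pairs.

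Of the 21 pathway lists, the cell cycle genes had the lowest median at pnd60 against pnd7 in both pairs over all gCap cells. Of 24 listed genes 18 could be measured in both pairs, and 15 of these were lower at pnd60 in both and none higher, with list medians of -2.97 in air and -3.21 in hyperoxia against 0.19 and 0.22 for all genes. In restricted cells 7 could be measured and 6 were lower in both pairs. Mki67, which encodes the proliferation antigen Ki67, was at 289.6, 310.3, 12 and 14.9 CPM, and at 294, 347, 15.1 and 0 CPM in restricted cells. Top2a, the topoisomerase that untangles replicated DNA, was at 373, 449, 24 and 34 CPM. Birc5, which encodes survivin of the chromosomal passenger complex, was at 158, 247, 0 and 3.32 CPM. Ube2c, the ubiquitin-conjugating enzyme of the anaphase-promoting complex, was at 174, 358, 0.925 and 12.5 CPM, and the mitotic cyclin Ccnb2 at 111, 155, 0.925 and 5.81 CPM. All 5 genes were lower in both pnd60 libraries than in both pnd7 libraries, and at pnd60 between 0 and 5 cells carried any count of Birc5, Ube2c or Ccnb2. Their log2 ratios were -4.59 and -4.38 for Mki67, -3.96 and -3.72 for Top2a, -7.56 and -4.84 for Ube2c and -6.91 and -4.73 for Ccnb2. For Birc5 the ratio was -6.22 in hyperoxia, and in air, with no count at pnd60, it was at most -5.83, taking 3 counts as the limit that a count of 0 allows in that library.

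Counted as cells, the same difference was seen. A cell was called cycling when 2 or more of 10 cell cycle genes were detected after thinning to 1000 counts. Cycling cells made up 16.6% of gCap cells in air at pnd7 (11.5 to 22.8) and 30.9% in hyperoxia at pnd7 (23.4 to 39.3), and 0.229% (0.0058 to 1.27) and 0.216% (0.0055 to 1.2) at pnd60, where 1 cell in each library was called. Non-endothelial cells had 8.37% (7.14 to 9.75), 12.3% (10.3 to 14.7), 1.27% (0.91 to 1.71) and 1.3% (0.952 to 1.73), so the share in gCap cells was above that in non-endothelial cells at pnd7, while at pnd60 the intervals overlapped. In restricted cells the shares were 13.3% (6.58 to 23.2), 27.4% (17.6 to 39.1) and 0.266% in the first 3 libraries. In hyperoxia at pnd60 none of 395 restricted cells was called (0 to 0.93%). The interval of restricted cells in air at pnd7 overlapped that of non-endothelial cells, while in hyperoxia at pnd7 it lay above. Without thinning the shares were 34.3, 56.1, 0.439 and 0.414%. Aerocytes had 19.3 and 23.2% at pnd7 and none at pnd60, Vwf-positive cells 6.56 and 18.9% at pnd7, and the remaining endothelial cells 14.9% (10.2 to 20.5) and 39.7% (27.6 to 52.8) at pnd7, in air and in hyperoxia.

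Since most of the cell cycle list was lower at pnd60, promoters are shown for Birc5, Ube2c and Ccnb2, the listed genes that ranked among the 10 lowest in both pairs, other than Cenpf. The windows are the 250 bases before the start of each gene in RefSeq (GRCm38.p6), chr11:117848987-117849236 on the plus strand for Birc5, chr2:164769679-164769928 on the plus strand for Ube2c and chr9:70421555-70421804 on the minus strand for Ccnb2. Capitals mark the CCAAT box, searched as CCAAT on both strands, and the cell cycle homology region (CHR), searched as TTTGAA on both strands, both of which are known from promoters of genes of G2 and mitosis. The sequences read 5′ to 3′ on the strand of the gene.
Birc5: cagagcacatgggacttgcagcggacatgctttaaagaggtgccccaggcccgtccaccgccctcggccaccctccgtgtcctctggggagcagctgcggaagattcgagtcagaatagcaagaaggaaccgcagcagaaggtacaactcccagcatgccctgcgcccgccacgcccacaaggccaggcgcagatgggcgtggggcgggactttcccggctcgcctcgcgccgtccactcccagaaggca
Ube2c: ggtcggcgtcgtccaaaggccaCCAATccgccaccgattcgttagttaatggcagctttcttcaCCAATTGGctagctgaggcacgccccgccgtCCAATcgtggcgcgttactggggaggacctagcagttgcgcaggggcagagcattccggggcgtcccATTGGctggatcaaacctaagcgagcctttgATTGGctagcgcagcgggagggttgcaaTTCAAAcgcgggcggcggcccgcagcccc
Ccnb2: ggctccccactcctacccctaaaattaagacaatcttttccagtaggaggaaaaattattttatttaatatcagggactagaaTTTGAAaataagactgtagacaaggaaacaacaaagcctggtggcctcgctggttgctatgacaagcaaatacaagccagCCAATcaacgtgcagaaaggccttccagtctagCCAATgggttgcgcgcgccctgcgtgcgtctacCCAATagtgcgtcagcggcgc

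The Ube2c window held 6 CCAAT boxes and 1 CHR, the Ccnb2 window 3 CCAAT boxes and 1 CHR, and the Birc5 window neither. A pair of the CCAAT boxes of Ube2c overlap on opposite strands, and no CCAAT box overlaps a CHR in these windows. Of the 24 cell cycle genes 21 were found in the RefSeq table, and 18 of these (85.7%) held a CCAAT box in a window of 250 bases, against 37.5% of all 27025 genes in the table. A CHR was in 7 (33.3%) against 18.3% of all genes, and both motifs in 7 (33.3%) against 6.45%. Counted by window, 33.8% of 32851 windows held a CCAAT box, 16% a CHR and 5.55% both. These are matches of letters, not binding sites, and their part in the levels was not tested.

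Imprinted growth genes were also lower at pnd60. Of 16 listed genes 6 could be measured in both pairs and 4 were lower in both (H19, Mest, Peg3 and Grb10), none higher, with list medians of -2.05 and -2.93, and in restricted cells 2 of 3 were lower. Mest, a hydrolase-like gene expressed from the paternal copy, was at 278, 492, 11.1 and 8.3 CPM, and at 443, 609.7, 16.4 and 8.24 CPM in restricted cells. The paternally expressed zinc finger gene Peg3 was at 275, 228, 41.6 and 29.9 CPM. H19, a maternally expressed long non-coding RNA, was at 270, 254, 1.85 and 5.81 CPM and in restricted cells at 175, 35.4, 0 and 0 CPM. The log2 ratios were -4.64 and -5.89 for Mest, -2.73 and -2.93 for Peg3 and -7.19 and -5.45 for H19. Grb10, an adaptor that dampens insulin and IGF signalling, had ratios of -1.37 and -1.6. Non-endothelial cells also had lower levels at pnd60, with Mest at 33.7, 38.2, 0.697 and 0.313 CPM and H19 at 39.6, 22.2, 0 and 0.0782 CPM.

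Genes of the basement membrane and matrix were lower at pnd60, 9 of 17 in both pairs and none higher, with medians of -1.13 and -1.24. The collagen IV chain Col4a2 was at 869.9, 1020.4, 367 and 424 CPM, with log2 ratios of -1.24 and -1.27, and of -1.48 and -1.51 in restricted cells. Its partner chain Col4a1 was at 1522, 1667, 882 and 935 CPM, with ratios of -0.79 and -0.83. Lamc1, the gamma chain of laminins, was at 175, 197, 53.6 and 63.9 CPM, with ratios of -1.71 and -1.63. The laminin chains Lama4 and Lamb1 and the linker proteins Nid1 and Hspg2 were lower in both pairs as well, as was Igfbp7, a secreted IGF-binding protein, at 395, 705, 164 and 203 CPM. In restricted cells 5 of 13 were lower in both (Col4a2, Lamc1, Sparc, Sparcl1 and Igfbp7) and Mgp was higher. Eln and Fn1, also lower in both pairs over all gCap cells, were at 2763, 1726, 170.5 and 208 CPM (Eln) and 729, 773, 319 and 326 CPM (Fn1) in non-endothelial cells.

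Genes of other functions were lower at pnd60 as well. Lmnb1, which encodes lamin B1 of the nuclear envelope, was at 201, 221, 26.8 and 29.1 CPM, with log2 ratios of -2.91 and -2.93 and of -3.39 and -3.96 in restricted cells. The chromatin protein Hmgb1 was at 1388, 1655, 452 and 496 CPM. Both are on a list of senescence-linked genes, of which 6 could be measured in both pairs and 2 were lower, and Mmp14, a membrane-bound matrix metalloproteinase, was lower as well in restricted cells. Tmsb10, an actin-binding thymosin, was at 6367, 7671, 1053 and 1036 CPM, and Rgcc, a regulator of the cell cycle, at 297, 369, 49.9 and 41.5 CPM, both named after their values were seen, from the 10 lowest in restricted cells. The sialomucin Cd34 was at 387, 413, 158 and 175 CPM. Glycolysis and hypoxia genes were mixed, with 2 of 10 higher and 2 lower in both pairs. Gapdh, at 602, 712, 259 and 304 CPM, and lactate dehydrogenase A (Ldha), at 229, 248, 98 and 86.4 CPM, were the lower ones. Acta2, H1f5, H2ac8, Myl9 and Tnc also ranked among the lowest, and the contractile genes Acta2 and Myl9 were at 54.8, 114, 9.59 and 5.88 CPM (Acta2) and 39.5, 55.9, 2.74 and 8.24 CPM (Myl9) in restricted cells.

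In the other direction, receptors and mediators of bone morphogenetic protein (BMP) signalling were higher at pnd60. Of 14 BMP and TGF-beta genes measured in both pairs, 7 were higher in both and none lower, with medians of 1.0 and 0.97, and in restricted cells 6 of 12 were higher. Summed, the list was at 4386, 4458, 8856 and 8065 CPM in aerocytes and 3803, 3884, 8686 and 9337 CPM in Vwf-positive cells. The age difference was thus also seen in other endothelial cells. Bmpr2, the type II receptor whose loss underlies heritable pulmonary arterial hypertension, was at 449, 425, 1526 and 1545 CPM, with log2 ratios of 1.77 and 1.86 and of 1.51 and 1.61 in restricted cells. Acvrl1, the type I receptor ALK1, was at 420.3, 393, 1164 and 1284 CPM. The co-receptor endoglin (Eng) was at 377, 506, 1124 and 1176 CPM. All 3 receptors were higher in both pnd60 libraries than in both pnd7 libraries. Smad6, an inhibitor of the pathway, was at 177, 168, 592 and 580.5 CPM and the ligand Bmp6 at 107, 67.1, 368 and 397 CPM, with log2 ratios of 1.74 and 1.79 and 1.79 and 2.56. Smad7 and the TGF-beta co-receptor Tgfbr3 were past 2-fold in both pairs over all gCap cells. The target gene Id1, at 287, 342, 584 and 599 CPM, was past 2-fold in both pairs in restricted cells alone.

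**Figure D4:**
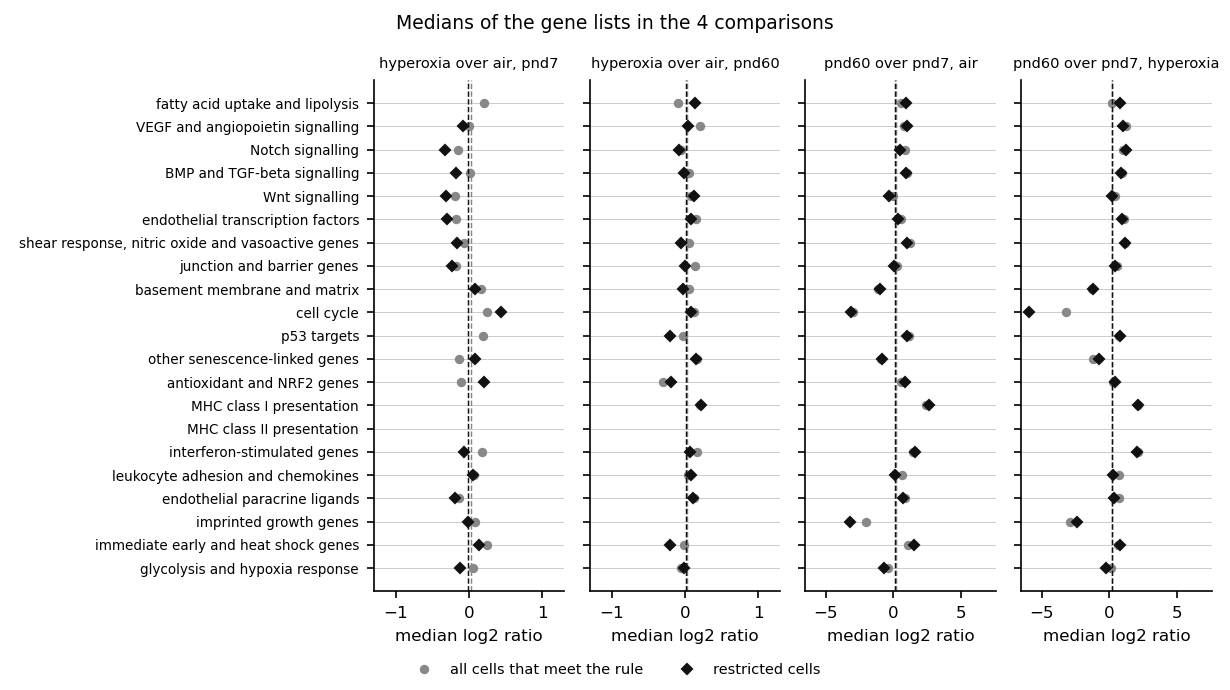
Median log2 ratio of each pathway gene list in the 4 comparisons, for all gCap cells and for restricted cells, where at least 3 list genes could be measured. The dashed lines are the medians of all genes. Cell cycle, imprinted and matrix lists lie below them for age, while the list medians drawn for hyperoxia lie within 0.5 (log2) of them.

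Genes of the vascular endothelial growth factor (VEGF) and angiopoietin pathway followed, with 5 of 11 higher in both pairs and none lower, medians of 0.80 and 1.21, and 4 of 9 higher in restricted cells. The list sum was also higher at pnd60 in aerocytes, at 4251, 4188, 11079 and 10664 CPM. Vwf-positive cells had 3853, 4130, 7921 and 8052 CPM. Vegfa, the ligand itself, was at 207, 231, 965 and 1243 CPM in gCap cells, with log2 ratios of 2.22 and 2.43 and of 2.28 and 2.54 in restricted cells. Its level in non-endothelial cells was 200.3, 230.2, 297 and 276 CPM. Flt1, the receptor VEGFR1 that also acts as a decoy, was at 291, 240.3, 902 and 871 CPM, while Kdr, the main signalling receptor VEGFR2, was at 503, 388, 718 and 900.2 CPM. Flt1 was past 2-fold in both pairs and Kdr, with ratios of 0.51 and 1.21, in the hyperoxia pair alone. Nrp1 and Adgrl4 were higher in both pairs as well. Of the Notch genes 3 of 9 were higher in both pairs (Dll1, Jag1 and Hey1), and in restricted cells Hey1 of 5. Hey1, a nuclear effector of Notch, was at 76.2, 80.7, 224 and 225 CPM, and the ligand Dll4, at 125, 77.8, 227 and 258 CPM, had log2 ratios of 0.86 and 1.73. Among 8 Wnt genes the receptor Fzd4 was higher in both pairs, at 39.2, 35, 133 and 94.7 CPM, a count near the 12.4% of all genes higher in both.

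A list of genes of shear response, nitric oxide and vasoactive signals had 7 of 15 higher in both pairs, none lower, medians of 1.21 and 1.19, and 5 of 12 higher in restricted cells. Its sum was also higher at pnd60 in aerocytes, at 6227, 6716, 16188 and 12711 CPM. In Vwf-positive cells it was at 6841, 7247, 15085 and 14596 CPM. The flow-induced factors Klf2 and Klf4 were at 562, 581, 1677 and 1322 CPM and 345, 303, 1378 and 1152 CPM. Thrombomodulin (Thbd), a brake on clotting, was at 292, 261, 1439 and 1531 CPM, with log2 ratios of 2.3 and 2.55 and of 2.02 and 2.36 in restricted cells. Angiotensin-converting enzyme (Ace) was at 439, 361, 1411 and 1466 CPM. The prostaglandin transporter gene Slco2a1 was at 424, 343, 1155 and 1059.6 CPM, and Ece1 and Npr3 were also higher in both pairs. Nos3, the endothelial nitric oxide synthase, was at 33.8, 25.3, 61 and 39.9 CPM. Among 17 endothelial transcription factors 6 were higher in both pairs and none lower, with Epas1, which encodes HIF-2α, at 1129, 1007, 3011 and 3250.3 CPM and Gata2 at 136, 119.6, 450.4 and 448 CPM. In the list of 15 junction and barrier genes, the sphingosine 1-phosphate receptor gene S1pr1 was higher in both pairs, at 243, 232, 789.9 and 693 CPM. Over all genes the share higher in both pairs was 12.4%.

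Ligands and genes of lipid uptake differed in part. Of 13 endothelial paracrine ligands 6 were higher in both pairs and Ccn2 was lower. Sema3g was at 147, 107, 676 and 703 CPM, with log2 ratios of 2.2 and 2.72, and the ephrin Efnb2, an arterial gene, at 274, 232, 758 and 765 CPM. The fatty acid translocase Cd36 was at 572, 408, 2105 and 2341 CPM, with ratios of 1.88 and 2.52 and of 1.68 and 2.49 in restricted cells, and was the 1 gene of 5 in the fatty acid list that was higher in both pairs.

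Interferon-stimulated genes and the few antigen presentation genes that could be measured were higher at pnd60 in part. Of 12 interferon-stimulated genes measured in both pairs 6 were higher in both and none lower, with medians of 1.49 and 2.15, and the same 6 of 11 were higher in restricted cells (Ly6e, Ly6a, Ly6c1, Gbp2, Gbp4 and Iigp1). Ly6a, which encodes the surface antigen Sca-1, was at 169, 149.8, 1501 and 1551 CPM, with log2 ratios of 3.15 and 3.37 and of 2.83 and 3.14 in restricted cells. Ly6c1 was at 79.5, 86.6, 594 and 532 CPM. The guanylate-binding protein gene Gbp4 was at 32.7, 40.9, 189 and 264 CPM. These genes were low in both pnd7 libraries and high in both pnd60 libraries. The sum of the interferon-stimulated list was also higher at pnd60 in aerocytes, at 3103, 4314, 11460.5 and 10079 CPM. In Vwf-positive cells the sum was 3098, 3770.5, 8816 and 9073 CPM. Of 12 MHC class I genes 4 could be measured in both pairs and 3 were higher in both (B2m, H2-Q4 and H2-T23), and of 7 class II genes only Cd74 could be measured, and it was higher. B2m, the light chain of MHC class I, was at 343, 451, 2439 and 2878 CPM in gCap cells and 471, 535, 1467 and 1562 CPM in non-endothelial cells. H2-Q4, a class I heavy chain gene with close paralogs among which reads can be split, was at 25, 58.4, 127 and 223 CPM. Cd74, the invariant chain of MHC class II, was at 567, 475, 2387 and 1123 CPM in all gCap cells and 94.3, 0, 797 and 807 CPM in restricted cells, and at 1278, 1383, 5575 and 6021 CPM in non-endothelial cells.

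Ranked by the smaller of the 2 ratios, the genes highest at pnd60 were Inmt, Aldh1a1, Xdh, Cyp2f2, Nr1d1, Slc16a9, LOC108167440, Zfp641, Gpx3 and Gm8995. In restricted cells, a ranking added after the values were seen, they were Inmt, Cbr2, Xdh, Sec14l3, Nr1d1, Tppp3, Scgb1a1, Neat1, LOC108167440 and Klf9. Of these, Scgb1a1 and Tppp3 are airway cell markers, which summed to 50.4, 54.1, 937 and 933 CPM in restricted cells. Over all gCap cells the air ratios of Cbr2, Scgb1a1 and Sec14l3 turned to -0.70, -1.0 and -0.58 with the mean CPM over cells. The part of airway cell RNA in this ranking was not tested. Xdh, xanthine dehydrogenase of purine breakdown, was at 15.2, 4.86, 352 and 314 CPM in gCap cells and 23.3, 27.1, 126 and 124 CPM in non-endothelial cells. Slc16a9, a monocarboxylate transporter family gene, was at 10.9, 14.6, 171 and 195 CPM in gCap cells and 15.7, 17.3, 19.8 and 21.5 CPM in the others. Nr1d1, the clock repressor REV-ERBα, was at 9.8, 9.73, 163 and 178 CPM in gCap cells and 10.2, 9.48, 185 and 192 CPM in non-endothelial cells, so it was higher at pnd60 in both. Zfp641 was at 12, 6.81, 138 and 132 CPM. Inmt, a methyltransferase gene of fibroblasts, was at 1.09, 0, 366 and 297 CPM in gCap cells and 5.49, 4.16, 1069 and 1039 CPM in non-endothelial cells, and the club cell gene Cyp2f2 at 29.4, 1.95, 591 and 490 and 47.8, 28.2, 509 and 355 CPM. Aldh1a1, at 12, 0, 349 and 189 CPM, was at 29.6, 29.2, 339.6 and 283 CPM in non-endothelial cells, and the secreted peroxidase gene Gpx3, at 16.3, 21.4, 402 and 207 CPM, at 33.9, 47.6, 737 and 678 CPM. For Inmt, Cyp2f2, Aldh1a1 and Gpx3 the level in non-endothelial cells moved with the age ratio, and its part was not tested. Among immediate early genes, which respond to tissue dissociation as well as to signals in the animal, 5 of 14 were higher in both pairs, and Fosb was at 163, 182, 411 and 450.1 CPM in gCap cells and 239, 291, 474 and 524 CPM in non-endothelial cells.

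**Figure D5:**
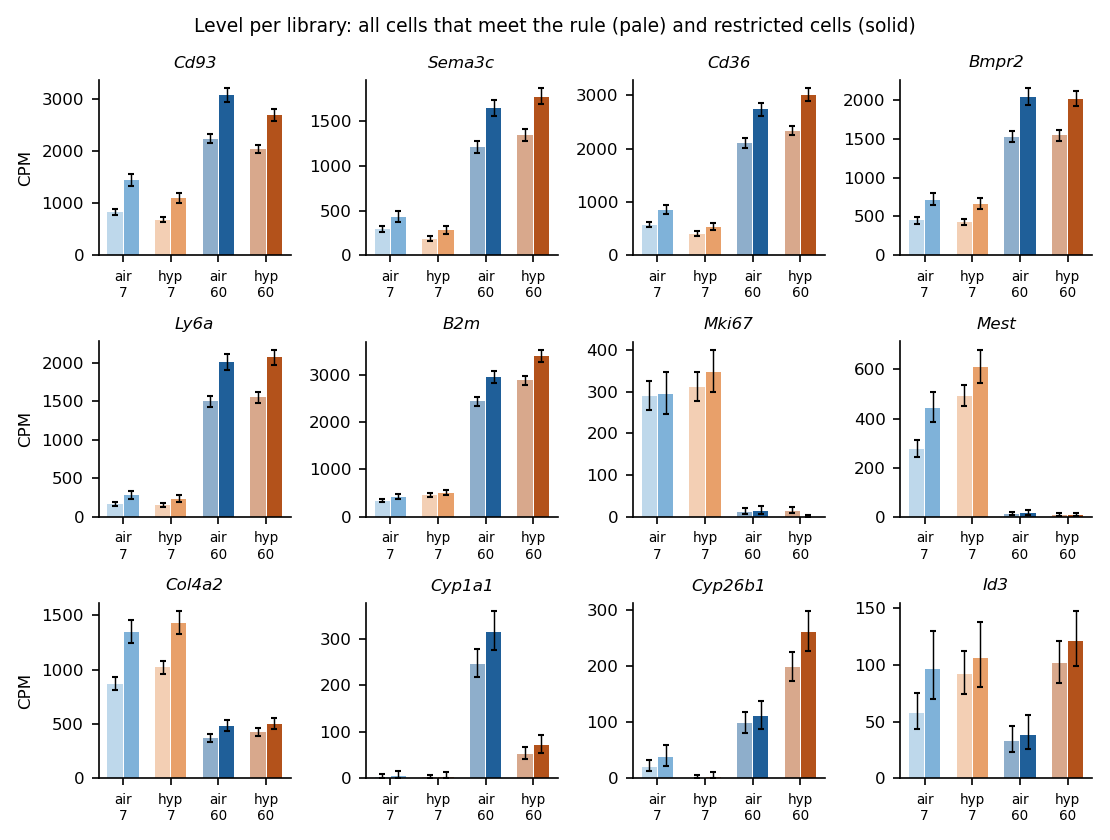
CPM of 12 genes in each library, with pale bars for all gCap cells, solid bars for restricted cells and lines for the 95% Poisson interval. Mki67, Mest and Col4a2 are high at pnd7, Cd93, Sema3c, Cd36, Bmpr2, Ly6a and B2m are high at pnd60, and Cyp1a1, Cyp26b1 and Id3 differ between the pnd60 libraries.

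Neonatal hyperoxia was compared with air at each age, and these 2 pairs again share no library. Far fewer genes were called than for age. At pnd7, 28 of 3859 genes (0.726%) were higher and 12 (0.311%) lower in hyperoxia, and at pnd60 25 of 4846 (0.516%) were higher and 37 (0.764%) lower. Of 3384 genes measured at both ages none was past 2-fold in the same direction at both, 0.0% higher and 0.0% lower. Restricted cells gave 21 of 2119 (0.991%) higher and 2 (0.0944%) lower at pnd7, 3 of 3495 (0.0858%) higher and 7 (0.2%) lower at pnd60, and again 0.0% and 0.0% of 1878 at both ages. Many of the called genes had too few counts in restricted cells, where 7 of the 28 higher and 4 of the 12 lower at pnd7 and 2 of the 25 higher and 10 of the 37 lower at pnd60 could be measured. Genes called in both sets of cells were 3 higher and 0 lower at pnd7 (Ube2c, Gyg and the fibroblast gene Mfap4), and 2 higher (Id3 and Cyp26b1) and 3 lower (Cyp1a1, Per1 and Apoe) at pnd60. Gyg, Apoe and Per1 were named after their values were seen, and so were the other genes called lower at pnd7 and higher at pnd60 in restricted cells alone, which were Zbtb7a and Ddx46 and Fchsd2. With the mean CPM over cells, and after thinning, Mfap4 turned to -0.89 at pnd7. The median log2 ratios of all genes were 0.02 at pnd7 and 0.03 at pnd60. Genes with the largest ratios at pnd7 included several known from other cells, with Marco, Igfbp2, Gm31872, Pdgfrb, Ccl6 and Mustn1 highest in hyperoxia and Scgb1a1, Coro1a, Cd52, Actg2, Alas2 and Net1 lowest. Hemoglobin and other erythroid genes, 5 of 5 lower over all gCap cells with a median of -1.23, had a median of -0.19 in restricted cells.

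At pnd7, few endothelial or proliferation genes passed 2-fold between hyperoxia and air. Cycling cells, as counted above, were 16.6% of gCap cells in air (11.5 to 22.8) and 30.9% in hyperoxia (23.4 to 39.3). In restricted cells they were 13.3% (6.58 to 23.2) and 27.4% (17.6 to 39.1), with overlapping intervals. In the cell cycle list 1 of 22 genes was called, Ube2c, where 0.726% of all genes were called higher and 0.311% lower. Ube2c was at 174 and 358 CPM in air and hyperoxia, with a log2 ratio of 1.04 (95% interval 0.77 to 1.32), and of 1.15 in restricted cells. Mki67 had a ratio of 0.1 (95% interval -0.14 to 0.34), and the list median was 0.25. Birc5 was at 158 and 247 CPM, with a ratio of 0.65 (95% interval 0.35 to 0.95). The imprinted gene Mest, at 278 and 492 CPM, had a ratio of 0.83 (95% interval 0.61 to 1.05). All 4 ratios were positive, and the intervals of Ube2c, Birc5 and Mest did not hold 0. In the matrix list Igfbp7 was at 395 and 705 CPM, with a ratio of 0.84 (95% interval 0.65 to 1.02), and of 1.14 in restricted cells, where Fn1, Eln and Bgn were also past 2-fold, at 1.66, 1.42 and 1.02. The fibroblast collagens Col1a1, Col1a2 and Col3a1 were past 2-fold in the same restricted cells, beside the fibroblast marker sums given above, and their part in the matrix ratios was not tested. Over all gCap cells Mgp, Gucy1a1 and Thbs1 were past 2-fold, and 47 and 43% of the Gucy1a1 counts came from 1 cell in air and in hyperoxia. Mgp turned to -0.02 without cells that carried Ptprc, Epcam, Pdgfra or Pdgfrb and to -0.86 with the mean CPM over cells, where Thbs1 was at -0.13.

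At pnd7 none of the 5 gCap markers outside the criteria reached 2-fold between hyperoxia and air, where 0.726% of all genes were called higher and 0.311% lower. Below 2-fold, gCap and vessel genes went both ways. Plvap was at 531 and 635 CPM, with a log2 ratio of 0.26 (95% interval 0.09 to 0.43), and Edn1 at 198 and 279 CPM, with a ratio of 0.49 (95% interval 0.22 to 0.77), and both were thus higher in hyperoxia. Tek, at 248 and 249 CPM, and Lpl, at 133 and 153 CPM, had intervals that held 0. Other genes were lower in hyperoxia. Sema3c was at 291 and 186 CPM, with a log2 ratio of -0.65 (95% interval -0.92 to -0.37), and of -0.6 in restricted cells. The Notch ligand Dll4 was at 125 and 77.8 CPM, with a ratio of -0.69 (95% interval -1.12 to -0.26). Bmp6 was at 107 and 67.1 CPM, with a ratio of -0.67 (95% interval -1.13 to -0.21). The intervals of Sema3c, Dll4 and Bmp6 did not hold 0. Cd36, at 572 and 408 CPM, had a ratio of -0.49 (95% interval -0.68 to -0.3), and Cd93, at 832 and 687 CPM, of -0.28 (95% interval -0.43 to -0.13). Kit, which the criteria used, had -0.49. Sema3c and Cd36, lower in hyperoxia at pnd7, were at 1208 and 1340.3 and 2105 and 2341 CPM at pnd60, with ratios of 0.15 and 0.15.

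At pnd60, a small set of genes differed between hyperoxia and air in restricted cells as well. Cyp1a1, the aryl hydrocarbon receptor target, was at 3.27, 1.95, 246 and 53.1 CPM, with counts in 84 of the air cells and 38 of the hyperoxia cells at pnd60. Its log2 ratio was -2.21 (95% interval -2.63 to -1.81), and -2.13 in restricted cells, and non-endothelial cells had 2.61 and 0 CPM. Apoe, the lipid carrier apolipoprotein E, had a log2 ratio of -1.55 and of -2.01 in restricted cells. Per1, a core clock gene also induced by glucocorticoids, was at 122 and 47.3 CPM, with a ratio of -1.37 (95% interval -1.84 to -0.91), and of -1.36 in restricted cells. Non-endothelial cells had Per1 at 117 and 86.9 CPM. Id3, a BMP target and inhibitor of helix-loop-helix factors, was at 57.7, 91.4, 33.3 and 101 CPM. At pnd60 its ratio was 1.61 (95% interval 1.06 to 2.18), and 1.66 in restricted cells, and at pnd7 0.66 (95% interval 0.16 to 1.18). The air pnd60 library was thus the lowest for Id3 and hyperoxia pnd60 the highest. Cyp26b1, which degrades retinoic acid, was at 20.7, 0.973, 98 and 198 CPM, with a ratio of 1.01 (95% interval 0.68 to 1.36) at pnd60, and of 1.23 in restricted cells. At pnd7 Cyp26b1 was found in 9 air cells and 1 hyperoxia cell, too few counts for a call.

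Of the list genes called at pnd60 over all gCap cells, Id3, Gclc and Cd74 had enough counts to be measured in restricted cells, and of these only Id3 was called. Cdkn1a, which encodes the cell cycle inhibitor p21, was at 16.3, 11.7, 67.5 and 22.4 CPM, with a log2 ratio of -1.59 (95% interval -2.28 to -0.94) and with counts in 48 and 19 cells. In restricted cells Cdkn1a was at 64.4 and 29.4 CPM and had too few counts for a call. In the antioxidant list 4 of 15 genes were lower and none higher (Gclc, Sod3, Mt1 and Mt2), against 0.764% of all genes lower and 0.516% higher. In restricted cells Gclc was below 2-fold while Sod3, Mt1 and Mt2 had too few counts for a call. Gclc, the rate-limiting enzyme of glutathione synthesis, was at 187 and 83 CPM, and at 84.9 and 60 CPM in restricted cells. Metallothionein Mt1 was at 203 and 75.6 CPM in all and 41.1 and 73 CPM in restricted cells. Cd74 was at 2387 and 1123 CPM in all gCap cells and 797 and 807 CPM in restricted cells, so that its difference between the libraries lay outside the restricted cells. Fn1 and Il33 were lower in hyperoxia, and 61% of the Il33 counts in air came from 1 cell. S100a9, S100a8, Scgb3a2, Thy1, Nrp2 and Fxyd6 ranked highest in hyperoxia and Lyz1, Ccdc153, Cyp1a1, Mt2, Foxj1 and Igfbp5 lowest. Several of these are known from other cells, among them the neutrophil genes S100a9 and S100a8 and the airway genes Scgb3a2 and Foxj1. Neutrophil markers were at 14.8 and 747 CPM in air and hyperoxia, and at 12.3 and 9.42 CPM in restricted cells. Scgb3a2 turned to -0.92 when 2 or more counts of Gpihbp1, Kit and Aplnr were required. Foxj1 turned to 0.25 with the mean CPM over cells. The lymphatic genes Prox1, Mmrn1 and Reln were past 2-fold higher, beside 11 gCap cells in hyperoxia and 3 in air at pnd60 with 2 or more of the 4 lymphatic genes.

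No gene measured at both ages passed 2-fold in the same direction at both, and the genes with the largest smaller ratio in 1 direction were Cryab, Id3 and Rcn1 for higher and Sec14l3, Pi4k2b and Gpx1 for lower. Cryab, a small heat shock protein gene, was at 56.6, 121, 36.1 and 64.8 CPM, with log2 ratios of 1.09 at pnd7 and 0.84 at pnd60. In restricted cells it was at 26.3, 31.7, 31.5 and 35.3 CPM and had too few counts for a call. Glutathione peroxidase 1 (Gpx1) was at 238, 159, 338 and 208 CPM, with ratios of -0.59 (95% interval -0.89 to -0.29) and -0.7 (95% interval -0.93 to -0.46). At pnd60 Klf2 had a log2 ratio of -0.34 (95% interval -0.44 to -0.25), and of -0.59 in restricted cells, and the NF-κB inhibitor gene Nfkbia had -0.67 (95% interval -0.84 to -0.49), both below 2-fold.

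Since the study concerned senescence, genes of that programme were read in gCap cells. Cdkn2a, which encodes p16, was found in 2, 2, 0 and 0 cells, so its level could not be compared at this depth. Cdkn1a was found in 13, 12, 48 and 19 cells and had too few counts for a call at pnd7. Of 16 p53 targets 5 could be measured in both age pairs, and Mdm2 and Trp53inp1 were higher at pnd60 in both. Mdm2, which targets p53 for degradation, was at 56.6, 46.7, 129 and 101 CPM, with log2 ratios of 1.19 and 1.12 for age, -0.28 (95% interval -0.87 to 0.32) for hyperoxia at pnd7 and -0.35 (95% interval -0.72 to 0.01) at pnd60. Both hyperoxia intervals held 0. Bax, a pro-apoptotic target, was at 172, 177, 64.7 and 95.5 CPM, in the opposite order between the ages. For hyperoxia at pnd7 none of 4 measured p53 targets and none of 9 senescence-linked genes was called. Over all genes 0.726% were called higher and 0.311% lower, so these counts do not set the lists apart from other genes. Lmnb1 had a ratio of 0.13 (95% interval -0.15 to 0.42).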

How the data were processed

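Single-cell suspensions of mouse lung were profiled with droplet 3′ sequencing. The authors aligned reads to mm10 with Cell Ranger and deposited whole-number molecule counts per gene and barcode for 42454 features, with 1 matrix per sample. The study kept cells with more than 700 and fewer than 8000 genes and under 5% mitochondrial counts and analysed them in Seurat 3.2.1, and no cell annotation was used here. The mitochondrial share rests on 2 features (mt-Rnr1 and mt-Rnr2).

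From the counts, the same limits were applied, cells were classed by the criteria given in the report, and counts were summed per library over gCap cells, aerocytes, Vwf-positive cells, other endothelial cells and non-endothelial cells. Doublets were not removed in the reported values. Scrublet marked 1, 4, 138 and 156 kept cells, under 0.5% of cells in the pnd7 libraries, where its calls were not relied on, and 0, 1, 29 and 34 gCap cells. CPM were given exact Poisson intervals, shares Clopper-Pearson intervals, and log2 ratios exact binomial intervals, all at 95%. These intervals, and the limit of 3 counts used where a library had none, cover counting error only. With 1 library per group nothing was tested. A call was a ratio past 2-fold with at least 100 counts over the pair, and ratios were tested on simulated data.

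The gCap criteria and the gene lists were chosen with earlier results of these data known. Genes were named if in a list, if among the 6 highest or lowest of a comparison, the 10 each way for both age pairs, the 8 each way for both hyperoxia pairs or the 8 each way against aerocytes, with criterion and hemoglobin genes left out. Genes named after their values were seen are said to be so in the report. Alternatives were the cell filter, the criteria, doublets, depth, the scaling, the count minimum and the fold. Counting and intervals were run in Python 3.11.15 with scipy 1.17.1 and numpy 2.4.6, doublet calls in scanpy 1.11.5, tables in pandas 2.3.3, figures in matplotlib 3.10.9, and TMM factors in edgeR 4.0.16 under R 4.3.3.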

Additional observations from a re-analysis of the deposited data

Results flagged for a closer look

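Igfbp5, a secreted IGF-binding protein gene, was past 2-fold in opposite directions at the 2 ages. It was at 51.2, 116, 86.9 and 24.9 CPM in gCap cells, so hyperoxia was higher than air at pnd7, with a log2 ratio of 1.18 (95% interval 0.68 to 1.7), and lower than air at pnd60, with -1.8 (95% interval -2.45 to -1.2). The difference between the ages was not tested, since each group was 1 library. The counts came from 24, 8, 10 and 8 cells, with 77% of the hyperoxia pnd7 counts and 68% of the air pnd60 counts in a single cell each. With the mean CPM over cells the ratio at pnd7 was -0.66, so its direction turned. In restricted cells it was at 0, 42.9, 26 and 23.5 CPM and in non-endothelial cells at 285, 144, 121 and 108 CPM.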

How the results depend on the processing

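No paired analysis was made, and because each group was 1 library no replicate could be left out. Single libraries, the lower counts per cell at pnd60 and the RNA of other cells in the pnd7 cells limit every comparison, and no setting removes the first of these. Keeping cells with more than 500 genes and under 10% mitochondrial counts, removing Scrublet doublets and leaving hemoglobin out of the totals moved no share and no count of calls beyond the limits used (the counting interval for a share, 1.5 times for a count), and the causes of the other changes were not tested except where the setting itself tests fewer or more genes.

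Shares of gCap cells were sensitive to the definition. Requiring 2 or more counts of Gpihbp1, Kit and Aplnr gave 4.94, 8.51, 8.57 and 8.68% of kept cells and 22.7, 30.7, 32.8 and 34.4% of endothelial cells. Thinning to 1000 counts gave 4.73 and 8.35% of kept cells at pnd7 and 45.9 and 49.3% of endothelial cells at pnd60. Restricted cells (chosen after the data had been seen) made up 3.25, 5.86, 8.92 and 8.66% of kept cells. They made up 18.9, 26.2, 36.1 and 36.5% of endothelial cells once the other gCap cells were left out of that total.

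Numbers of genes past the threshold depend on how many could be measured. At pnd7 and pnd60 these were 3859 and 4846 in the report, 3204 and 4036 with 2 or more gCap counts, 2492 and 3376 after removing cells with Ptprc, Epcam, Pdgfra or Pdgfrb, 429 and 1967 after thinning and 2119 and 3495 in restricted cells. For age in air and in hyperoxia they were 4232 and 4670 in the report and 1169 and 1164 after thinning. Genes higher at pnd7, 28 in the report, were 14 after that removal, 64 with the mean CPM over cells, 3 after thinning, 67 and 9 with minimums of 50 and 300 counts, 692 with no minimum and 125 at 1.5-fold. Genes lower at pnd7, 12 in the report, were 7 with 2 or more gCap counts, 29 after the removal, 49 with the mean over cells, 56, 5 and 923 with the other minimums in the same order, 89 at 1.5-fold and 2 in restricted cells. Genes higher at pnd60, 25 in the report, were 10 after the removal, 2 after thinning, 71, 6 and 695 with the other minimums, 117 at 1.5-fold and 3 in restricted cells. Genes lower at pnd60, 37 in the report, were 22 with 2 or more gCap counts, 17 after the removal, 20 with the mean over cells, 3 after thinning, 119, 11 and 1162 with the other minimums, 153 at 1.5-fold and 7 in restricted cells. The number past the threshold at both ages, 0 in each direction in the report, became 2 higher and 2 lower with a minimum of 50 counts, 56 and 125 with none, and 6 and 4 at 1.5-fold. Lower at both ages were 1 gene with 2 or more gCap counts, 5 after the removal and 2 with the mean over cells.

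For age, calls in air were 371 higher and 171 lower after thinning, 1147 and 695 with a minimum of 50 counts, 202 and 187 with 300, 2955 and 1738 with none and 1316 and 891 at 1.5-fold, and 437 were higher in restricted cells. In hyperoxia they were 349 and 201 after thinning, 296 and 272 with 300 counts, 3071 and 1992 with no minimum, 1598 and 1067 at 1.5-fold, and 1372 were higher with a minimum of 50. Both age pairs together gave 253 and 145 after thinning, 173 and 171 with 300 counts, 1704 and 1109 with no minimum, 1077 and 735 at 1.5-fold, and 784 higher with a minimum of 50. TMM scaling gave 563 higher and 874 lower in hyperoxia, and median-of-ratios scaling 567 and 867, with 336 higher in both pairs.

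Of 21 pathway lists, 10 had a median at least 0.5 (log2) above and 5 at least 0.5 below that of all genes for age in air, and 10 and 4 in hyperoxia. The number below in air became 3 after thinning. For hyperoxia at pnd7 it was 0 above and 0 below in the report, 1 and 1 after the removal, 2 and 1 with the mean over cells and 3 and 1 after thinning. At pnd60 it was 0 above and 1 below (MHC class II presentation, with 2 genes measured), with 1 above after thinning. The number below was 2 with 2 or more gCap counts and 0 after the removal, after thinning and in restricted cells.

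Among single genes 33 of the values changed sign, most of them genes of other cells. Apart from these, 184 values moved and 228 stayed the same with the mean CPM over cells, and 127 and 130 in restricted cells. After thinning 123 moved and 65 stayed the same, and with TMM scaling 73 and 351. After removing cells with Ptprc, Epcam, Pdgfra or Pdgfrb the log2 ratios for hyperoxia were 0.25 for Cd74 at pnd60, and at pnd7 0.020 for Hba-a1, 0.11 for Hbb-bs, -0.020 for Mgp, -1.77 for Sftpa1 and -1.16 for Sftpd, and those for age were -0.0069 for Scgb1a1 in air, 1.37 for Sftpa1 and 0.84 for Sftpd in hyperoxia. In restricted cells Cd74 was at 0.018 at pnd60, Hba-a1 at 0.044 at pnd7 and Sftpc at 0.39 for age in hyperoxia. With 2 or more gCap counts Scgb3a2 was at -0.92 at pnd60, and Hba-a1, Hba-a2 and Hbb-bs at 0.032, 0.0080 and 0.14 at pnd7. With the mean CPM over cells Foxj1 and Mt1 were at 0.25 and 0.012 at pnd60, Igfbp5, Mfap4, Mgp and Thbs1 at -0.66, -0.89, -0.86 and -0.13 at pnd7, Cbr2, Il33, Scgb1a1, Sec14l3 and Slc34a2 at -0.70, -0.26, -1.0, -0.58 and -0.91 for age in air, and Hopx at -0.22 for age in hyperoxia. After thinning Mfap4 was at -0.89 at pnd7, Cbr2, Scgb1a1 and Slc34a2 at -0.64, -0.90 and -0.86 for age in air and Hopx at -0.12 for age in hyperoxia.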
